A study of Mus musculus with 8 samples.

Results

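The 39 Hox genes of the mouse HoxA, HoxB, HoxC and HoxD clusters were described in H3K36me3 ChIP–seq of mouse embryonic fibroblasts (MEFs), the connective-tissue cells grown from an embryo. They were taken by symbol from the GENCODE M21 annotation of the mm10 (GRCm38) genome, in which they are 39 of 21938 protein-coding genes on the autosomes, X and Y: 11 in HoxA on chromosome 6, 10 in HoxB on chromosome 11, 9 in HoxC on chromosome 15 and 9 in HoxD on chromosome 2. All libraries came from i4F MEFs of 1 embryo at E13.5, called Clone 1 in the labels. These cells carry a cassette of Oct4, Sox2, Klf4 and Myc (OSKM) that is switched on by doxycycline, and all were held in iPSC medium for 72 h. The conditions were no doxycycline (MEF), no doxycycline with 2 µM vitamin B12 (MEF B12), 1 µg/ml doxycycline (OSKM) and 1 µg/ml doxycycline with 2 µM vitamin B12 (OSKM B12). These doses are those of the labels, and the study's methods write the doxycycline dose in mg and not in µg. For each condition there was 1 library of H3K36me3 and 1 of input DNA, so the differences between conditions have no replicate check and no test is given. Where 4 values follow each other without a condition, their order is MEF, MEF B12, OSKM, OSKM B12. The cells were collected in bulk, and fewer cells carrying a mark cannot be told apart from less of it in every cell. The H3K36me3 libraries held between 29046913 tags (MEF B12) and 33399267 tags (OSKM).

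Hox genes encode homeodomain transcription factors that tell cells where along the head-to-tail axis, and along the limb, they lie. The genes of a cluster stand in a row and are numbered by paralog group: low numbers act toward the head and high numbers toward the tail and the tip of the limb. Fibroblasts keep much of the Hox pattern of the place they came from, so these genes serve as a record of position. H3K36me3 is laid down behind elongating RNA polymerase and marks the bodies of transcribed genes, most strongly toward their 3′ ends.

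The part of a Hox gene that carries its function is the homeobox, the stretch of 180 bases that encodes the DNA-binding domain. It overlapped the last exon of the longest transcript in all 39 genes, though for Hoxa7 that transcript holds only part of it. By coding span, from the first to the last coding base with introns, paralog group 3 had the largest share in H3K36me3 peaks. By gene body, group 5 did in MEF, MEF B12 and OSKM B12. The homeobox of Hoxd3 was the only one that lay wholly in a peak in all 4 libraries. Over the gene body, Hoxa5 had the highest mean signal of the 39 genes, but over the coding span Hoxd4 had more in every library. The homeobox of Hoxa5 is shown, read from GRCm38 in the direction of the gene. Capitals mark 18 bases of the recognition helix, which enters the major groove of DNA, and encode the same residues in all 39 genes.
Hoxa5, chr6:52202632-52202811, minus strand: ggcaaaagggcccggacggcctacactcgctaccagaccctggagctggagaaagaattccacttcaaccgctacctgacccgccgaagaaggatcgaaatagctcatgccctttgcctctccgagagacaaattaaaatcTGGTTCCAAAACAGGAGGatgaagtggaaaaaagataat
None of this homeobox lay in a peak in MEF or OSKM, 72.8% of it did in MEF B12 and all of it in OSKM B12.

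The clusters also hold miRNA genes whose products repress Hox transcripts, and 3 of them lay in peaks. Their mature 5p sequences, and that of miR-10a, are shown with the seed, bases 2 to 8, in capitals.
miR-196a-5p, Mir196a-1 in HoxB, chr11:96265187-96265208, plus strand: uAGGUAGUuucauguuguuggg
miR-196b-5p, Mir196b in HoxA, chr6:52230129-52230150, minus strand: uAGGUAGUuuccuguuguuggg
miR-10b-5p, Mir10b in HoxD, chr2:74726074-74726096, plus strand: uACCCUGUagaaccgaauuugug
miR-10a-5p, Mir10a in HoxB, chr11:96317186-96317208, plus strand: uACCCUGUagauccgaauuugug
Sequences are from RefSeq on GRCm38.p6. The miR-196 pair shares 1 seed and the miR-10 pair shares another.

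H3K36me3 covered few Hox genes, and fewest in OSKM. A gene was counted as covered when at least 10% of its body, the span of its longest transcript, lay in the deposited peaks. By this measure 8 of 39 Hox genes were covered in MEF, or 20.5% (exact 95% binomial interval 9.30% to 36.5%), beside 42.3% of all protein-coding genes. In MEF B12 the count was 11 of 39 (28.2%; 15.0% to 44.9%) beside 43.6% of all genes. No Hox gene was covered in OSKM (0 of 39, which allows a share of up to 9.03%) beside 35.0%, and 11 were covered in OSKM B12 (28.2%) beside 43.8%. Intervals here and below cover counting error only. OSKM thus had the lowest count and both libraries with vitamin B12 the highest. OSKM had the most tags and the fewest bases in peaks over the genome. These bases were 153673836, 165933414, 92803918 and 165797617. The part of either in the Hox counts was not tested.

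With other limits OSKM again had the lowest count. At least 1 base lay in a peak for 11, 16, 8 and 15 Hox genes, beside 51.5%, 52.3%, 48.3% and 52.8% of all genes. At least 50% of the body did so for 1, 3, 0 and 2, beside 21.5%, 23.5%, 11.4% and 23.7%. Hoxa5 passed 50% in MEF, Hoxa5, Hoxc6 and Hoxd4 in MEF B12, and Hoxa5 and Hoxd4 in OSKM B12.

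The 39 genes fell into 3 classes over the 4 libraries. The covered genes, 13 of 39 in at least 1 library (45.4% of all genes), were Hoxa2, Hoxa3, Hoxa5, Hoxa6, Hoxb3, Hoxb4, Hoxb5, Hoxb7, Hoxc5, Hoxc6, Hoxd3, Hoxd4 and Hoxd9. A further 6 had a peak over less than 10% of the body, namely Hoxa9, Hoxa10, Hoxb6, Hoxb9, Hoxc4 and Hoxc9. No peak was called in any library over the other 20 (44.2% of all genes), among them Hoxa4, Hoxa7, Hoxa11, Hoxa13, Hoxb1, Hoxb2, Hoxb8, Hoxb13, Hoxc8, Hoxc10, Hoxc11, Hoxc12, Hoxc13, Hoxd1, Hoxd8, Hoxd10, Hoxd11, Hoxd12 and Hoxd13. At this depth a gene without a peak is a gene whose enrichment was not detectable. A peak in all 4 libraries was seen for 6 genes, Hoxa3, Hoxa6, Hoxb3, Hoxc4, Hoxd3 and Hoxd4, against 46.5% of all genes. In OSKM the only peak over Hoxa3 was the one at Hoxa6, which the long Hoxa3 transcript overlaps.

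**Figure D1:**
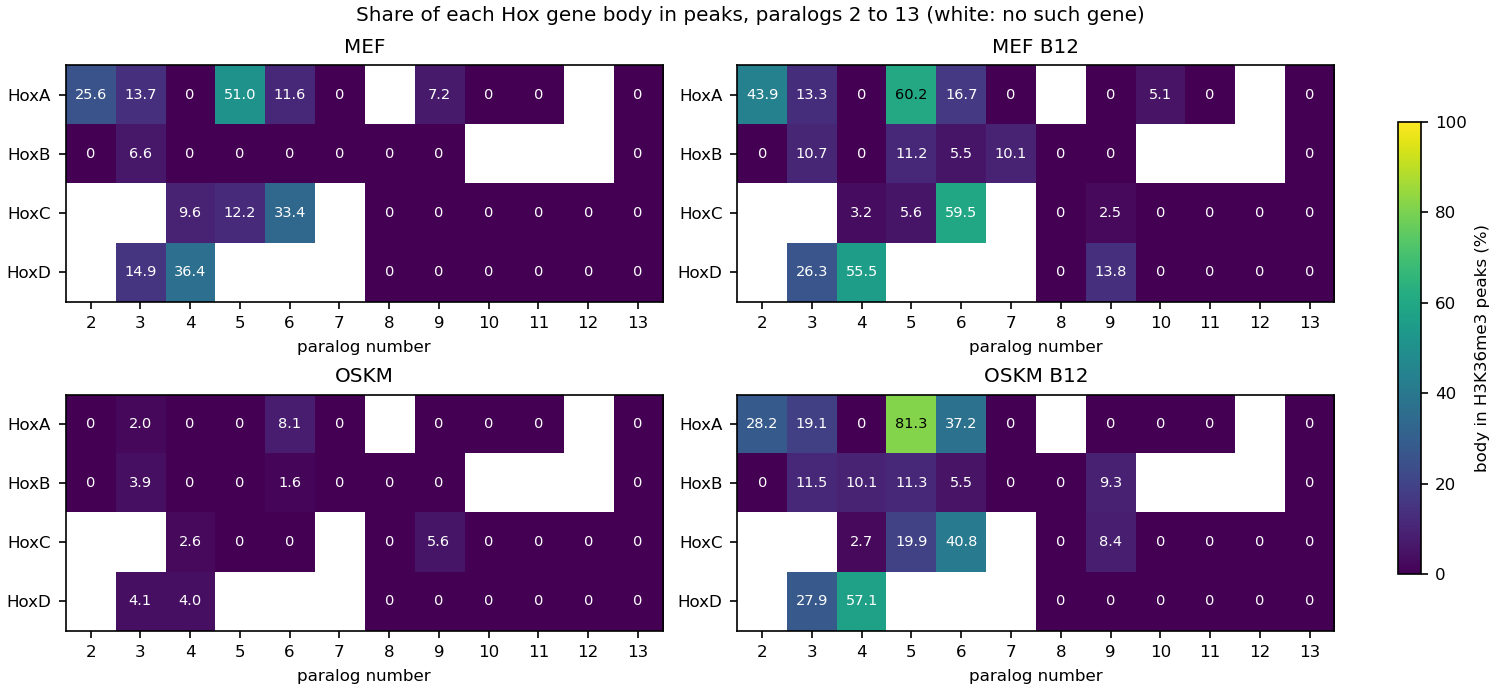
Share of each Hox gene body in H3K36me3 peaks (%, colour and printed value), by cluster (rows) and paralog number (columns), in each of the 4 libraries. Paralogs 2 to 13 are drawn, and white cells are numbers that a cluster does not have. The covered cells lie between paralogs 2 and 7 except Hoxd9 in MEF B12, and no OSKM cell passes 8.13%.

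Most Hox genes are short and have 2 exons (31 of 39), and such genes are covered less often. Their bodies ran from 1846 to 44054 bases with a median of 3282, against 16779 for all protein-coding genes. Of the 2221 protein-coding genes with 2 exons, 15.2% were covered in MEF and 16.1% in MEF B12, against 11.2% in OSKM and 16.3% in OSKM B12. Genes with 2 to 6 exons, the range of the Hox genes, gave 31.6%, 32.9%, 24.9% and 33.1%, and genes of the same range of body length 45.9%, 46.9%, 40.0% and 47.2%. The Hox share stood above the values for genes with 2 exons in MEF, MEF B12 and OSKM B12 and below in OSKM. The Hox intervals in MEF, MEF B12 and OSKM B12 reach down to 9.30%, 15.0% and 15.0% and so hold these values. The sets are unlike, since the Hox share takes in Hoxa3, Hoxb3, Hoxd3 and Hoxd4, which have 3 to 6 exons. All Hox intervals are over the 39 genes, and the Hox genes with 2 exons were not set apart. For OSKM the interval of the body measure ends at 9.03%, against 11.2% of genes with 2 exons. Only 31 of the 39 Hox genes behind this interval have 2 exons, so it does not place those below the 11.2%. By coding span, described below, 2 of 39 Hox genes were covered in OSKM, with an interval of 0.627% to 17.3%.

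**Figure D2:**
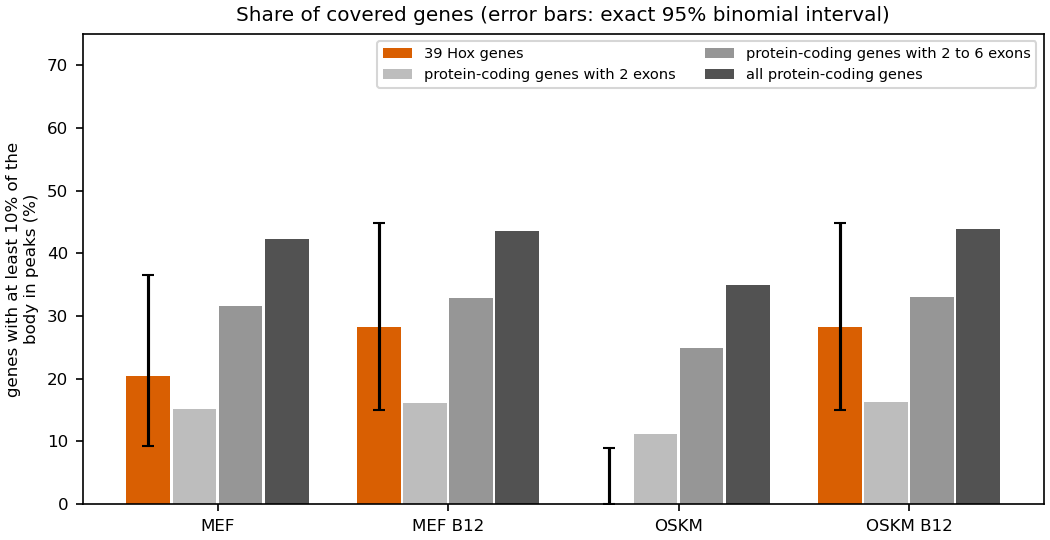
Share of genes with at least 10% of the body in peaks (%) in each library, for the 39 Hox genes (orange, with exact 95% binomial intervals), for protein-coding genes with 2 exons, with 2 to 6 exons, and for all protein-coding genes (greys). The Hox bar is at 20.5% in MEF and 28.2% in MEF B12, against 0 in OSKM and 28.2% in OSKM B12.

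Among the genes of the head and neck, paralogs 1 to 3, Hoxb3 and Hoxd3 had at least 10% of the coding span in peaks in all 4 libraries. The longest transcripts of Hoxa3 and Hoxd3 run through neighbouring genes (Hoxa4, Hoxa5 and Hoxa6, and Hoxd4), so their peaks are shared with them. Coding spans, from the first to the last coding base with introns included, do not overlap and are given for these genes. Hoxd3, which shapes the first neck vertebrae, had 54.5% of its coding span in peaks in MEF and 65.5% in MEF B12, against 30.05% in OSKM and 58.8% in OSKM B12. The coding span of Hoxb3, its HoxB counterpart, was covered over 60.1%, 77.1%, 44.97% and 68.5% in the same order. Hoxa3, which is needed for the thymus and parathyroid, was at 31.0%, 36.4%, 0 and 35.1%. Hoxd3 and Hoxb3 therefore stayed covered over their coding spans in OSKM, at lower shares, and Hoxa3 did not. Hoxa2, which patterns the second pharyngeal arch, had 25.6% of its body in peaks in MEF and 43.9% in MEF B12, against none in OSKM and 28.2% in OSKM B12. Hoxb1, Hoxd1 and Hoxb2, genes of the anterior ends of their clusters, had no peak in any library.

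Signal was measured as density, the pileup per 1000000 H3K36me3 tags summed over the bases in peaks and divided by the body length. Over the coding span of Hoxd3 the density was 0.287 in MEF and 0.373 in MEF B12, against 0.140 in OSKM and 0.353 in OSKM B12. Over that of Hoxb3 it was 0.271, 0.307, 0.189 and 0.384. Both were lowest in OSKM and at or above the MEF level in the libraries with vitamin B12.

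The genes of the neck and chest, paralogs 4 to 8, held the most strongly covered Hox bodies. Hoxa5, which acts in lung and in the skeleton at the base of the neck, was in peaks over 51.0% of its body in MEF and 60.2% in MEF B12, against none in OSKM and 81.3% in OSKM B12. Its density was 0.1995, 0.234, 0 and 0.3495, and the value in OSKM B12 was the highest of any Hox body in any library. Hoxd4, another gene of the neck vertebrae, was covered over 36.4%, 55.5%, 4.01% and 57.1% of its body, and its coding span over 70.6%, 100%, 8.81% and 100%. Both genes were at their lowest in OSKM, where Hoxa5 had no peak and Hoxd4 kept 1 short one. Hoxc6, a gene of the chest region, was covered over 33.4% in MEF and 59.5% in MEF B12, against none in OSKM and 40.8% in OSKM B12. Hoxa6 had 11.6%, 16.7%, 8.13% and 37.2% of its body in peaks, the highest OSKM value of any Hox body.

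Weaker coverage was found over the remaining central genes, and it was less steady between libraries. Hoxc5 was covered over 12.2% in MEF and 5.56% in MEF B12, against none in OSKM and 19.9% in OSKM B12, all of it 3′ of the coding span. Hoxc4 had 9.63%, 3.17%, 2.62% and 2.67% of its long body in peaks, and its coding span was covered over 36.6% in MEF and 31.0% in OSKM B12 and not in the other two. Hoxc5 and Hoxc4 thus had less of the body in peaks in MEF B12 than in MEF. Hoxb5, which helps to place the forelimb, was covered only in the libraries with vitamin B12, over 11.2% in MEF B12 and 11.3% in OSKM B12. Hoxb4, studied for the growth of blood stem cells, had 10.1% in OSKM B12 alone, and Hoxb7 10.1% in MEF B12 alone. Each of these 3 genes rested on 1 peak per library, and Hoxb6 stayed between 0 and 5.51%. Hoxa4, Hoxa7, Hoxb8, Hoxc8 and Hoxd8 had no peak.

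The posterior genes, paralogs 9 to 13, which pattern the lower trunk, the limbs and the genital region, were almost without H3K36me3 peaks. Hoxd9 was the only one covered over at least 10%, at 13.8% in MEF B12 and 0 in the other 3 libraries. Hoxa9 had a peak over 7.19% in MEF alone and Hoxa10 one over 5.12% in MEF B12 alone. Hoxb9 had 9.26% in OSKM B12 alone. Hoxc9 was at 0 in MEF and 2.50% in MEF B12, against 5.61% in OSKM and 8.37% in OSKM B12, and it was the posterior gene with a peak in OSKM. None of these 5 genes had a peak in more than 3 libraries, and the peaks of Hoxa9 and Hoxb9 alone reached a coding span. No gene of groups 11, 12 and 13, among them Hoxa11 and Hoxd11 of the forearm and Hoxa13 and Hoxd13 of the digits, had a peak in any library.

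By coding span, coverage therefore stood highest at paralog 3 and, but for Hoxa9 in MEF and Hoxb9 in OSKM B12, ended at paralog 6, as the plot of coding spans by paralog number shows. By body, group 5 stood highest in MEF, MEF B12 and OSKM B12, at 20.8%, 24.3% and 36.6%. Group 3 was at 12.4%, 17.2% and 20.3% there. The division into the groups 1 to 3, 4 to 8 and 9 to 13 was chosen after the values were seen. In MEF, peaks held 28.2% of the coding spans of the 8 anterior genes, 10.3% of those of the 15 central genes and 0.551% of those of the 16 posterior genes. In MEF B12 the shares were 35.1%, 14.1% and 0, in OSKM 12.1%, 0.933% and 0, and in OSKM B12 30.5%, 16.5% and 0.116%. The order from anterior to posterior was the same in all 4 libraries. Of the anterior genes, 4, 4, 2 and 4 had at least 10% of the coding span in peaks in MEF, MEF B12, OSKM and OSKM B12, against 4, 4, 0 and 5 of the central genes and 1, 0, 0 and 0 of the posterior genes. For all protein-coding genes this measure gave 42.1%, 43.4%, 35.3% and 43.7%. The libraries come from 1 embryo, so the order describes these cells and not MEFs in general.

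**Figure D3:**
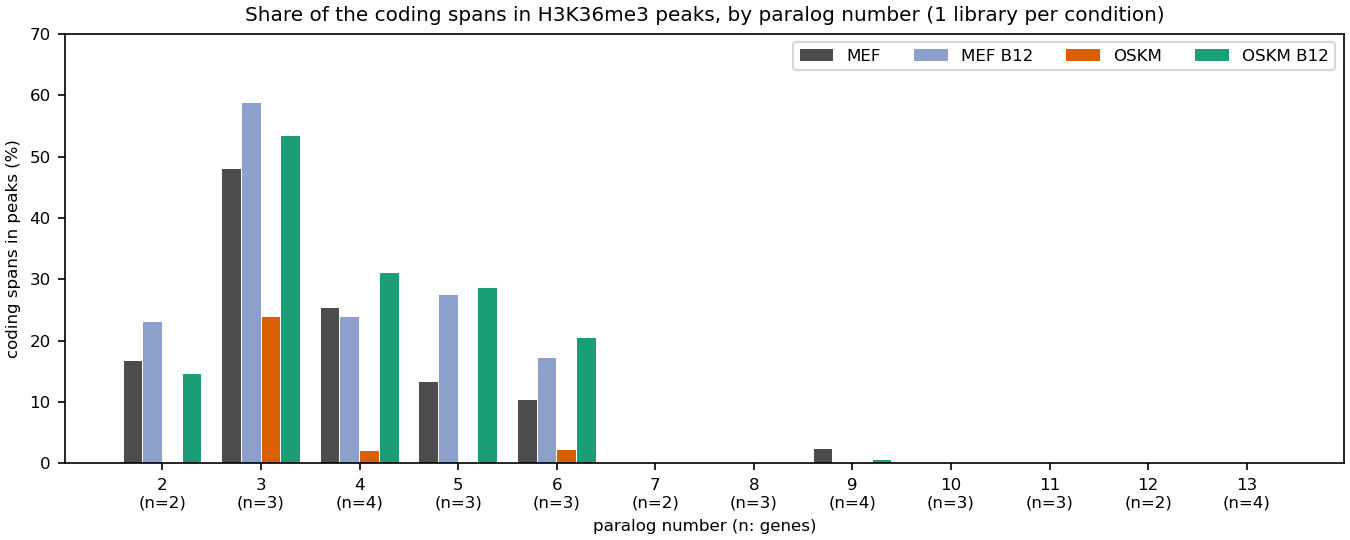
Share of the coding spans in H3K36me3 peaks (%) by paralog number, summed over the genes of the number (n below each), for paralogs 2 to 13 and the 4 libraries (colours, 1 library each). Paralog 3 stands highest, at 47.9% in MEF and 58.7% in MEF B12, against 23.8% in OSKM and 53.4% in OSKM B12, and paralogs 7, 8 and 10 to 13 are at 0.

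In most Hox genes with a peak, peaks lay toward the 3′ end. The later part of the body was covered over a larger share than the earlier part in 9 of the 11 Hox genes with a peak in MEF and 13 of 16 in MEF B12, against 5 of 8 in OSKM and 14 of 15 in OSKM B12. For all protein-coding genes with a peak the shares were 87.5%, 87.7%, 85.9% and 87.6%. Hoxc6 in MEF B12 had all of its later part in peaks and 19.05% of its earlier part. Hoxa3 was an exception, with 23.04% of the earlier and 4.34% of the later part in peaks in MEF, and its earlier part holds Hoxa5 and Hoxa6. Whole homeoboxes, which stand toward the 3′ end, lay in peaks for 6 genes in MEF (Hoxa3, Hoxa9, Hoxc4, Hoxc6, Hoxd3 and Hoxd4), 6 in MEF B12 (Hoxa2, Hoxa3, Hoxa6, Hoxc6, Hoxd3 and Hoxd4), 1 in OSKM (Hoxd3) and 6 in OSKM B12 (Hoxa3, Hoxa5, Hoxa6, Hoxc4, Hoxd3 and Hoxd4). The homeobox of Hoxb3 fell at the edge of a peak or between 2 peaks of that gene, with 1.67% of it in a peak in MEF and 67.2% in MEF B12, against 0 in OSKM and 11.7% in OSKM B12.

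Only 5 regions of the clusters, 3311 bases in all, lay in a peak in all 4 libraries. They were 866 bases from the 3′ end of Hoxa6 into the gap before Hoxa5 (chr6:52205620-52206485), 658 and 308 bases in the coding span of Hoxb3 (chr11:96344313-96344970 and chr11:96345887-96346194), 288 bases that begin just after the homeobox of Hoxd4 (chr2:74728470-74728757) and 1191 bases that hold the homeobox of Hoxd3 (chr2:74746156-74747346). Over these shared bases the mean scaled pileup was 0.509 in MEF and 0.528 in MEF B12, against 0.448 in OSKM and 0.546 in OSKM B12. Over all bases of the genome shared by the 4 libraries it was 0.667, 0.759, 0.503 and 0.791. Each base was given the mean pileup of the whole peak it lay in, so peak width enters these values. OSKM was lowest in both means, but not in each region. The Hoxd3 region was at 0.570, 0.626, 0.466 and 0.611, and the first Hoxb3 region at 0.488, 0.394, 0.392 and 0.540, with OSKM lowest. In the Hoxa6 region OSKM B12 was lowest (0.507, 0.568, 0.462 and 0.449). There the OSKM B12 value is the mean of a peak of 3582 bases, and the OSKM value that of a peak of 866 bases. In the second Hoxb3 region (0.401, 0.405, 0.481 and 0.594) and the Hoxd4 region (0.431, 0.441, 0.432 and 0.528) MEF was lowest.

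**Figure D4:**
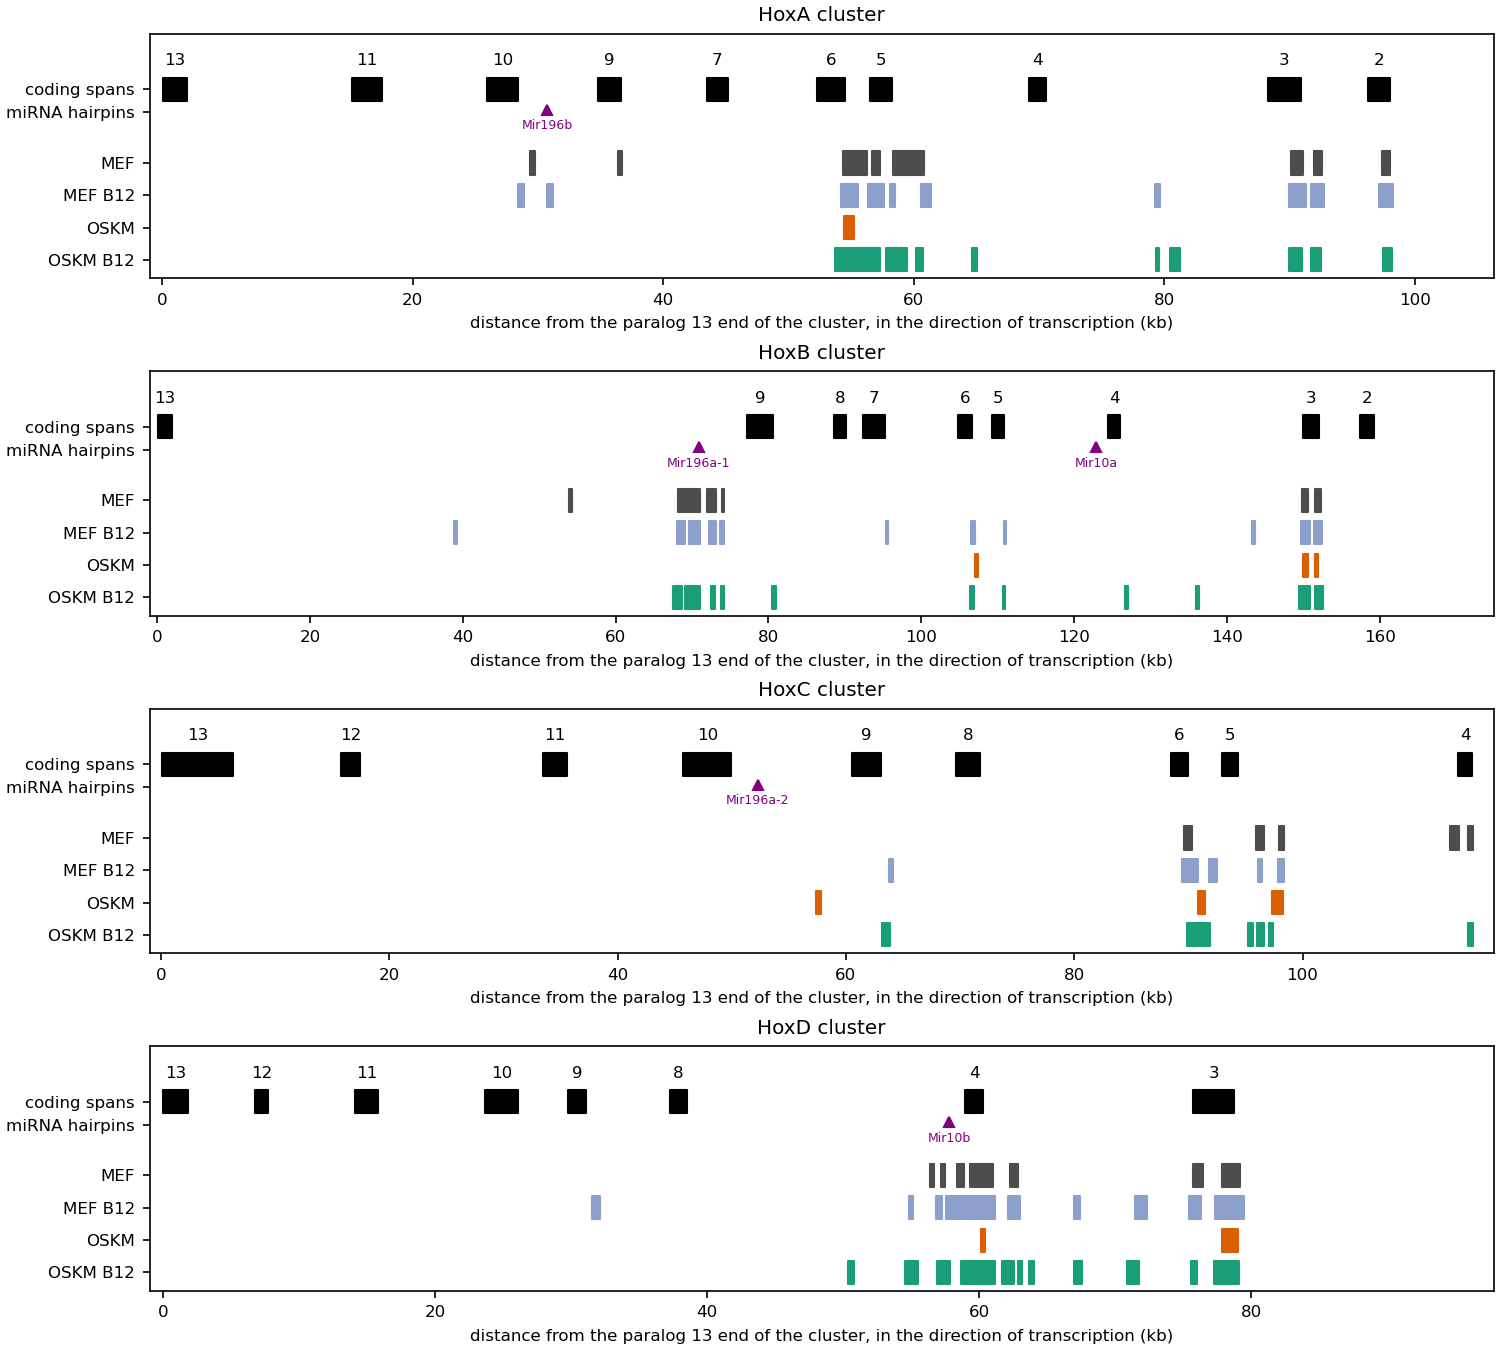
Map of the 4 Hox clusters, with distance from the paralog 13 end in the direction of transcription (kb). Black bars are coding spans of paralogs 2 to 13 with their number, purple triangles 5 miRNA hairpins, and coloured bars the peaks of each library. Peaks gather around paralogs 2 to 6 in HoxA, around paralog 3 and Mir196a-1 in HoxB, around paralogs 4 to 6 in HoxC and around paralogs 3 and 4 in HoxD, and OSKM has the fewest, 9 in all.

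The clusters differed in where their peaks lay. Peaks filled 7.57% of the HoxA span in MEF and 8.29% in MEF B12, against 0.822% in OSKM and 9.29% in OSKM B12, and 5.58%, 10.4%, 1.53% and 10.5% of the HoxD span. They filled 3.66%, 4.66%, 0.721% and 4.85% of HoxB and 2.75%, 2.88%, 1.76% and 3.90% of HoxC. HoxA and HoxD were the most covered clusters in MEF, MEF B12 and OSKM B12, and HoxC and HoxD in OSKM. In HoxB, 4756 of the 6371 peak bases in MEF lay outside Hox bodies, in the wide gap between Hoxb13 and Hoxb9. The lincRNA gene Gm53 in this gap was covered over 17.4% in MEF and 14.4% in MEF B12, against none in OSKM and 19.2% in OSKM B12.

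Among miRNA hairpins, that of Mir196a-1 was wholly in a peak in MEF, MEF B12 and OSKM B12 and in none in OSKM. The Mir10b hairpin, which lies inside the Hoxd4 and Hoxd3 transcripts, was wholly in a peak in MEF B12 and OSKM B12, and that of Mir196b in MEF B12 alone. Mir10a, Mir196a-2 and Mir615 had no peak. Of the 43 non-coding genes in the cluster spans, 9 had a peak, among them the antisense genes Hoxaas3 (12.7% in MEF and 10.9% in MEF B12, against 2.17% in OSKM and 18.3% in OSKM B12) and Hoxb3os (13.9%, 19.3%, 8.31% and 21.4%). These overlap Hox genes, and ChIP–seq peaks carry no strand, so their signal and that of the Hox genes cannot be told apart. Hotair, Hotairm1 and Haglr, long non-coding RNAs of HoxC, HoxA and HoxD, had no peak.

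The homeobox genes at the posterior ends of HoxA and HoxD, Evx1 and Evx2, had no peak, as was so for Hoxa13 and Hoxd13 beside them. At the other flanks, Skap2 beyond the anterior end of HoxA was covered over 4.08% in MEF and Mtx2 next to Hoxd1 over 7.17%. Calcoco1, 198925 bases beyond Hoxc13, was covered over 87.2% in MEF and 74.7% in OSKM, and Hoxc13, Hoxc12, Hoxc11 and Hoxc10 at that end of the cluster had no peak.

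OSKM induction was compared with uninduced MEFs to ask what became of the mark over Hox genes after 72 h. Of the Hox body bases, 16878 lay in peaks in MEF and 4371 in OSKM, a ratio of 0.259 (0.114 to 0.588 from the 20 and 8 peaks), while for all protein-coding genes the ratio was 0.607. The ratio of mean density was 0.248 (0.213 to 0.288 from estimated tags), and 0.503 for all genes. Both ratios follow how many bases were called as peaks in each library and are no fold change of the mark itself. The mean scaled pileup over the Hox body bases in peaks was 0.437 for MEF against 0.418 for OSKM. Some bases lay in a peak in all 4 libraries, and so were still called in OSKM. Over these the OSKM to MEF ratio of mean pileup was 0.880 for the Hox regions and 0.754 for the genome. The order of Hox and genome is thus the reverse of that for called bases. These pileups are means over whole peaks of unlike width. By cluster the ratio of covered body bases was 0.124 in HoxA, 0.690 in HoxB, 0.314 in HoxC and 0.273 in HoxD, and over the whole spans 0.109, 0.197, 0.638 and 0.273. All were below 1, but the cluster with the ratio nearest 1 was HoxB by bodies and HoxC by spans. By coding span the HoxC ratio was 0.0. A gene was called lower or higher when its density differed by 1.5-fold or more after 0.05 was added to both values, which shrinks the changes of weak genes. By this rule 8 of 39 Hox genes (20.5%) were lower in OSKM, Hoxa2, Hoxa3, Hoxa5, Hoxa9, Hoxc5, Hoxc6, Hoxd3 and Hoxd4, beside 30.9% of all genes. None was higher, beside 0.269% of all genes. The 28 Hox genes without a peak in MEF could not be called lower, and the median log2 change was 0 over the 39 genes and -0.02 over all genes.

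Of the genes called lower, Hoxa2, Hoxa5, Hoxa9, Hoxc5 and Hoxc6 were listed at 0 in OSKM. For the others the log2 change on the scale with 0.05 added was -0.90 for Hoxa3, -0.80 for Hoxd3 and -1.60 for Hoxd4. Hoxa6 (-0.31) and Hoxb3 (-0.25) were lower by less than 1.5-fold. Hoxc9 and Hoxb6 went the other way, from 0 in MEF to densities of 0.0176 and 0.00538 in OSKM, below the 1.5-fold rule. With the whole gene record as the body, Hoxc5 (-0.05) and Hoxc6 (-0.57) were no longer called lower, nor was Hoxc5 by coding span or Hoxd3 over bases of no other gene (both 0). Of the peak bases of the clusters in MEF, 16.1% were also in a peak in OSKM, against 55.6% over the genome, and 65.5% of the OSKM bases were also in a MEF peak, against 92.1%. The Hox peaks stood below the middle of each list in strength: the median peak in the clusters had a fold enrichment above 47.8% of the MEF list, 37.8% of the MEF B12 list, 42.9% of the OSKM list and 41.6% of the OSKM B12 list, and 1, 1, 0 and 3 of them reached a −log10 q of 5. The part of this in the Hox ratio was not tested.

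With vitamin B12 during OSKM induction, more bases of the Hox genes lay in called peaks. Covered bases were 26459 in OSKM B12 against 4371 in OSKM, a ratio of 6.05 (2.79 to 13.1), and the density ratio was 6.55 (5.66 to 7.58). For all genes these ratios were 1.78 and 2.45. The mean scaled pileup over the Hox body bases in peaks was 0.452 in OSKM B12 and 0.418 in OSKM. Over the bases in a peak in all 4 libraries the ratio of pileup was 1.22 for the Hox regions and 1.57 for the genome. This is again the reverse of the order for called bases, from pileups averaged over whole peaks. By the 1.5-fold rule 12 Hox genes (30.8%) were higher, beside 43.3% of all genes: Hoxa2, Hoxa3, Hoxa5, Hoxa6, Hoxb3, Hoxb4, Hoxb5, Hoxb9, Hoxc5, Hoxc6, Hoxd3 and Hoxd4. None was lower, beside 0.132%. The median log2 change was 0 over the 39 genes and 0.12 over all genes. Of those with a peak in OSKM, the log2 change was 1.16 for Hoxa3, 1.31 for Hoxa6, 0.75 for Hoxb3, 1.43 for Hoxd3 and 2.26 for Hoxd4. The other 7 were listed at 0 in OSKM. With the gene record as the body Hoxc5 (0.41) was no longer called, nor were Hoxb4 (0), Hoxb5 (0.55) and Hoxc5 (0) by coding span, nor Hoxb3 (0.24) and Hoxd3 (0) over bases of no other gene. The covered body bases were 10.5 times as many in HoxA, 3.98 in HoxB, 3.08 in HoxC and 6.85 in HoxD, and over the spans 11.3, 6.72, 2.22 and 6.85 times.

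**Figure D5:**
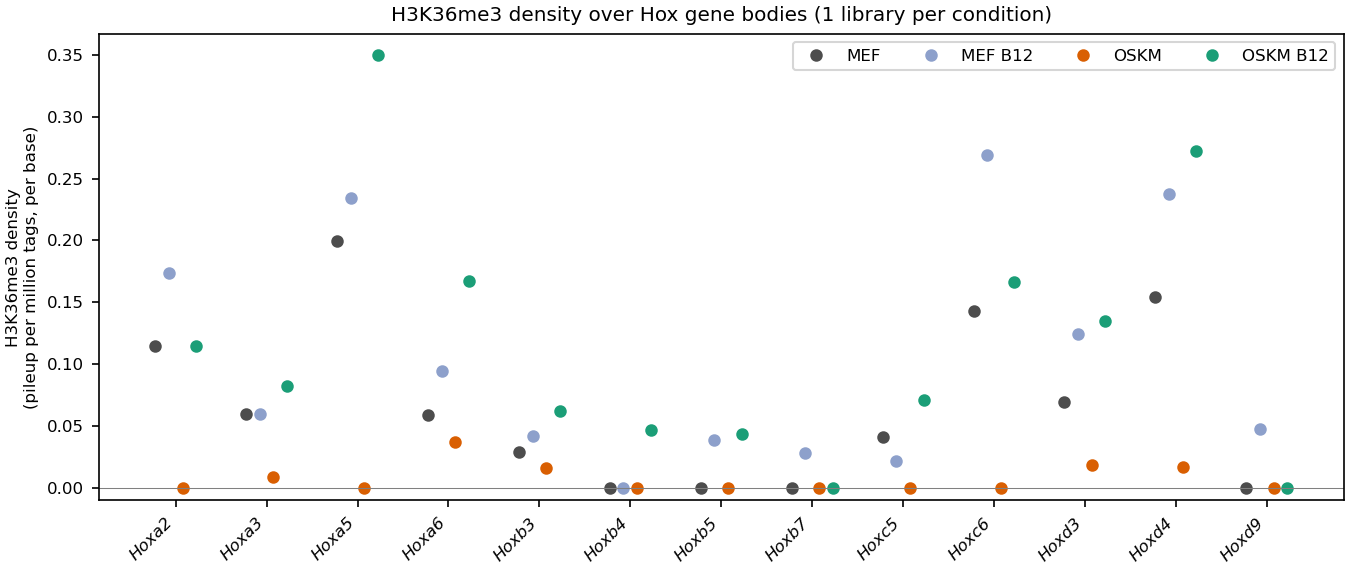
H3K36me3 density (pileup per 1000000 tags, per base of the body) of the 13 Hox genes covered over at least 10% in at least 1 library, with 1 point per library (colours). No gene was chosen through OSKM, where none reached 10%, so the low place of the OSKM points follows from the choice. Hoxa5 spans the widest range, from 0 in OSKM to 0.3495 in OSKM B12.

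In uninduced MEFs the ratios with vitamin B12 were closer to 1, and the difference from those under OSKM was not tested. Covered Hox bases were 23371 in MEF B12 and 16878 in MEF, a ratio of 1.38 (0.780 to 2.46), and the density ratio was 1.40 (1.28 to 1.53), against 1.08 and 1.20 for all genes. The interval of the covered bases includes 1. The density interval does not, but it counts tags within called peaks and leaves out which peaks were called. By the 1.5-fold rule 4 Hox genes (10.3%) were higher in MEF B12, beside 2.33% of all genes, namely Hoxb5, Hoxb7, Hoxc6 and Hoxd9, and 1 was lower, Hoxa9, beside 0.511%. Hoxb5, Hoxb7 and Hoxd9 had no peak in MEF, and each rested on 1 peak of MEF B12. Over bases that belong to no other gene, which 12 of the Hox genes lack, the density ratio turned to 0.910 and that of covered bases to 0.897. Over the bases in a peak in all 4 libraries the ratio of pileup was 1.04 for the Hox regions and 1.14 for the genome. By cluster the ratio of covered body bases was 1.06 in HoxA, 2.35 in HoxB, 0.805 in HoxC and 1.83 in HoxD. Over the spans it was 1.09, 1.27, 1.05 and 1.86, so that HoxC turned in direction, and HoxB by coding span was 1.35.

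OSKM B12 was set against untreated MEF, to compare the induced cells given vitamin B12 with the starting cells. Covered Hox bases were 1.57 times as many (0.897 to 2.74) and density 1.62 times as high (1.49 to 1.77), against 1.08 and 1.23 for all genes. The interval of the bases includes 1 here too, and that of density leaves out which peaks were called. By the 1.5-fold rule 8 Hox genes (20.5%) were higher, beside 4.2% of all genes: Hoxa5, Hoxa6, Hoxb4, Hoxb5, Hoxb9, Hoxc9, Hoxd3 and Hoxd4. Of these, Hoxb4, Hoxb5, Hoxb9 and Hoxc9 had no peak in MEF, and each rested on 1 peak of OSKM B12. The bodies of Hoxd3 and Hoxd4 overlap and share peaks. Hoxa9 alone was lower, beside 0.57%. Over bases of no other gene the density ratio was 1.02, and over the bases in a peak in all 4 libraries the ratio of pileup was 1.07 for the Hox regions and 1.19 for the genome. The log2 change was 0.68 for Hoxa5, 0.99 for Hoxa6, 0.63 for Hoxd3 and 0.66 for Hoxd4. These comparisons share libraries: MEF enters 3 of the 4 ratios and OSKM 2. Of the cluster peak bases in MEF, 73.0% were also in an OSKM B12 peak, against 86.9% over the genome.

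Partners of Hox proteins and genes upstream of the clusters were read from lists. Of 9 genes for Pbx, Meis and Pknox factors, which bind DNA together with Hox proteins, 6 were covered in MEF and 6 in MEF B12, against 3 in OSKM and 6 in OSKM B12. Meis1 had 17.7%, 20.97%, 4.61% and 18.97% of its body in peaks. Covered shares for all protein-coding genes were 42.3%, 43.6%, 35.0% and 43.8%. By the 1.5-fold rule 3 of the 9 cofactor genes were lower in OSKM than in MEF, beside 30.9% of all genes. In OSKM B12 5 were higher than in OSKM, beside 43.3%. Among 5 genes that switch Hox genes on, Kmt2a (63.0%, 65.6%, 54.9% and 66.9%), a histone H3K4 methyltransferase that keeps Hox genes active, and its partner Men1 were covered in every library, and Cdx1, Cdx2 and Cdx4 had no peak.

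Of 29 other genes that mark position in embryonic mesenchyme, 6 were covered in MEF and 10 in MEF B12, against 4 in OSKM and 9 in OSKM B12. Of all protein-coding genes, 42.3%, 43.6%, 35.0% and 43.8% were covered. Tbx5, a forelimb gene, was covered over 11.0%, 21.7%, 4.43% and 26.1%, and Tbx4, a hindlimb gene, over 4.01%, 3.02%, 2.70% and 13.3%. Pitx1, the other hindlimb gene in the list, had no peak. By the 1.5-fold rule 6 of the 29 were lower in OSKM than in MEF, beside 30.9% of all genes. In OSKM B12 9 were higher than in OSKM, beside 43.3%. None was higher in OSKM than in MEF, beside 0.269% of all genes, or lower in OSKM B12 than in OSKM, beside 0.132%.

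Markers of cell type were read in the same way. Of 10 fibroblast genes, 9, 10, 9 and 9 had a peak in MEF, MEF B12, OSKM and OSKM B12, with a median of 83.1%, 84.3%, 70.3% and 84.8% of the body covered, and S100a4 was at 0 in all but MEF B12. The summed density of the fibroblast genes was 5.62, 6.29, 3.42 and 6.49, lowest in OSKM. Density over all protein-coding genes was lower in OSKM too, with an OSKM to MEF ratio of 0.5035. None of 8 pluripotency genes had a peak except Zfp42 in OSKM, over 2.42% (summed density 0.00683), and none of 5 epithelial or 3 muscle genes had one. Of 4 blood genes, Cd68 was covered over at least 76.0% in every library and Ptprc was at 0, with a summed density from 0.413 in OSKM to 0.949 in OSKM B12. Of 4 endothelial genes, Pecam1 and Cdh5 were at 0 and Tek reached 26.6% in OSKM B12, and the sum ran from 0.00993 in MEF to 0.131 in OSKM B12. Of 4 neural genes, Tubb3 was covered over 25.1%, 31.7%, 0 and 25.6% and Sox10 was at 0, and the sum ran from 0.00264 in OSKM to 0.143 in MEF B12. The part of other cell types in the Hox differences was not tested.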

How the data were processed

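H3K36me3 ChIP–seq and input libraries (1 each per condition) were aligned by the authors to mm10 with Bowtie 0.12.9, runs were merged and duplicates removed, and broad peaks were called per library against its own input with MACS2 2.2.6, at q cut-offs of 0.05 and 0.1 (submitters' processing notes, methods and file headers). The deposited peak lists give a pileup signal (mean number of extended fragments over the peak), a fold enrichment ratio over the local input, and −log10 p and −log10 q values. After duplicate removal the H3K36me3 libraries held 29046913 to 33399267 tags and the inputs 34524486 to 36150875, and 65473 to 69420 peaks were listed. At this depth the pileup of Hox peaks was 8.24 to 18.6 fragments. The labels name H3K36me3 as the target, but the antibody entry is written H3K3me3 mAb.

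Peaks on scaffolds (16, 15, 1 and 14) were left out. Pileup was divided by the library's tags and multiplied by 1000000. A body was the longest protein-coding transcript in GENCODE M21, a peak counted from an overlap of 1 base, and bases outside peaks counted as 0. Log2 changes used a pseudocount of 0.05. Intervals are exact (Clopper-Pearson) for shares, from the number of peaks for ratios of bases, and from estimated tags for ratios of density. Those for density treat tags as independent counts and leave out which peaks were called. Overlaps were computed in Python 3.11 with numpy 2.4.6, scipy 1.17.1 and Biopython 1.88, plots with matplotlib 3.10.9. The interval arithmetic was tested on simulated data, and 0 of 200 cases differed from a base-by-base count. Homeoboxes were located by translating the coding sequences.

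Counts are over all 39 members, but some members and sequences are not reported here individually. The members and the gene lists were chosen with earlier results of these data known. The genes named are members, the flanking genes, non-coding genes in the clusters with a peak, and lists of Hox cofactors, activators, position genes and cell type markers. The split of paralogs into 3 groups, the comparison of earlier and later parts of bodies, the homeobox coverage and the choice of printed sequences were made after values were seen. Alternatives changed the peak strength, the definition of the body, the share that counts as covered and the scaling.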

Additional observations from a re-analysis of the deposited data

Results flagged for a closer look

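The difference with vitamin B12 went in opposite directions without and with OSKM for 3 Hox genes and for the HoxC gene bodies. For each of these the values rest on 1 library per condition, and whether the 2 differences differ was not tested. The log2 density of Hoxa3 differed by -0.0027 between MEF B12 and MEF, close to no difference, and by 1.16 between OSKM B12 and OSKM. For Hoxc4 the values were -0.40 and 0.021, the second close to no difference. Hoxc5 had -0.33 and 1.28, and was listed at 0 in OSKM.

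Over the HoxC bodies, peaks held 0.805 times as many bases in MEF B12 as in MEF and 3.08 times as many in OSKM B12 as in OSKM. The ratio of HoxC density was 0.935 without OSKM and 3.48 with OSKM. Over the whole HoxC span both ratios were above 1, at 1.05 and 2.22 for bases and 1.16 and 2.58 for density, and with the gene record as the body the MEF B12 to MEF ratio of bases was 1.10, so the opposite direction holds for the bodies only. The HoxC span held 5 peaks in MEF and 5 in MEF B12, against 3 in OSKM and 6 in OSKM B12.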

How the results depend on the processing

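No paired analysis was possible because there was only 1 library per condition, and no library could be left out for the same reason. With only peaks of −log10 q of at least 5, 0 Hox genes were covered in MEF and MEF B12 and 1 in OSKM B12. The OSKM to MEF ratio was then 0.0 for bases and density, those of OSKM B12 to MEF 3.17 and 3.25, the MEF B12 to MEF density ratio 1.72, and OSKM B12 to OSKM gave no value, since no such peak remained in OSKM. Over bases of no other gene the counts were 2, 3 and 3 in MEF, MEF B12 and OSKM B12. The density ratios were 0.910 (MEF B12 to MEF, turned in direction), 0.139 (OSKM to MEF) and 1.02 (OSKM B12 to MEF). The MEF B12 to MEF ratio of covered bases also turned, to 0.897, but stayed within its wide interval. This setting leaves out 12 Hox genes. By coding span 2 Hox genes were covered in OSKM, and the density ratios were 1.26, 0.293, 4.79 and 1.40 (MEF B12 to MEF, OSKM to MEF, OSKM B12 to OSKM, OSKM B12 to MEF). A limit of 50% gave 1, 3 and 2 genes in MEF, MEF B12 and OSKM B12, and a limit of 1 base gave 8 in OSKM. Unscaled pileup gave 1.25 for MEF B12 to MEF and 1.48 for OSKM B12 to MEF. Beyond the construction of each setting, the cause was not tested.

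The other 69 of these values stayed within 1.5 times the reported count or within its interval. A minimum fold enrichment of 2 removed no Hox peak, the lowest being 2.08, and so tested nothing. Its values equal the reported ones by construction. They are still counted in the 69 above and in the 38, 48 and 151 below, and so inflate these tallies. Of 72 values for single genes each, 38 had the reported direction for OSKM against MEF and 48 for OSKM B12 against OSKM. No single-gene value had the opposite direction, and the rest were 0 in a comparison. These values are for the 13 genes covered in at least 1 library, and none was chosen through OSKM. A gene at 0 in OSKM cannot be higher there than in MEF, nor lower in OSKM B12 than there. The shared direction thus follows in part from the choice of genes and is no check of it. Of the values for single genes and clusters, 39 moved by 1.5 times or more and 151 did not. With only peaks of −log10 q of at least 5 none of the 7 called genes examined stayed past 1.5-fold in OSKM against MEF (0 for 6 of them, -0.51 for Hoxd3). Over bases of no other gene the MEF B12 to MEF ratio of HoxC bases was 0.355, and with the gene record as the body the OSKM to MEF ratio of HoxC bases was 0.541. Depth limits the genes without a peak, and a peak near the cut-off in 1 library can be missed in another.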
